A study of Mus musculus with 16 samples.

Results

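The pluripotency factors described here are 10 mouse genes whose products keep embryonic stem cells undifferentiated or mark that state, and they were followed through the first day of treatment with a hawthorn extract during differentiation. They were chosen by symbol, with 4 general factors (Pou5f1, Sox2, Nanog and Utf1) kept apart from 6 naive factors (Zfp42, Klf2, Klf4, Esrrb, Dppa3 and Dppa5a). The array carried 12 probes for these 10 genes, among 60273 gene probes and 27655 gene symbols in all. Of these 12, 2 probes carried the symbol itself as gene name, and the other 10 were named through the RefSeq accession in the same field. A probe was tested where some group had all of its arrays well above background, which held for 36729 probes in all, for 11 of the 12 probes of the factors and for each of the 10 genes.

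The cells were CGR8-Myh6-GFP mESCs, mouse embryonic stem cells carrying GFP under the promoter of the heart muscle gene Myh6, so that all groups share 1 line and its reporter. The stock was kept in medium with LIF, and the stated recipe of the differentiation medium lists none. On day 4 of differentiation, cells received DMSO as vehicle (2 arrays per time point), WS1442 at 0.25 mg/ml (3 arrays per time point) or its MeOH eluate at 0.1 mg/ml (3 arrays per time point), and RNA was taken after 6 h or 24 h. WS1442 is a hawthorn leaf and flower extract, and the MeOH eluate is a fraction of it. There was 1 Agilent array of the 1-colour kind for each of the 16 samples, and levels are given as log2 signal after quantile normalization. RNA integrity numbers were 8.6 to 10.0. The 8 arrays of a time point lay on 1 slide, so that time and slide cannot be told apart. Between 55.1% and 63.0% of gene spots were well above background on an array. The labels do not say whether replicates came from separate cultures, so p-values measure only the spread between these samples. RNA came from whole wells, in which fewer pluripotent cells and less RNA per cell cannot be told apart.

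In the mouse embryo, naive pluripotency is the state of the preimplantation epiblast. LIF, acting through Stat3, and the transcription factors Klf2, Klf4, Esrrb and Nanog hold cultured stem cells in it. As cells leave this state through a formative and then a primed one, the naive factors fall first, whereas Pou5f1 and Sox2, which bind DNA side by side, stay on until cells commit to a germ layer. Utf1 is a chromatin-associated protein of pluripotent cells, and Zfp42, also called Rex1, is a widely used marker of the naive state. Dppa3, also called Stella, marks naive cells and primordial germ cells.

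Each level below is the brightness of 1 oligonucleotide probe per gene, the brightest where a gene had several. For 5 of the 6 genes called in a comparison with DMSO, the first 30 bases of that probe are shown. These probes are 48 to 57 bases long, and such short stretches are all that the arrays read of each transcript.
Nanog: atgagtgtgggtcttcctggtccccacagt
Sox2: agggaattgggaggggtgcaaaaagaggag
Klf2: ttttaagtctgctactttgagccataattt
Dppa3: gaagtttagaagcctcaagctgtgaggccc
Dppa5a: gtatcgagtgaagccagtttccagtccttg
The normalized table that the authors deposited holds the same 12 probes under their target accession. Its values differed from those used here by at most 0.0181 on the log2 scale over the 11 tested probes.

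**Figure D1:**
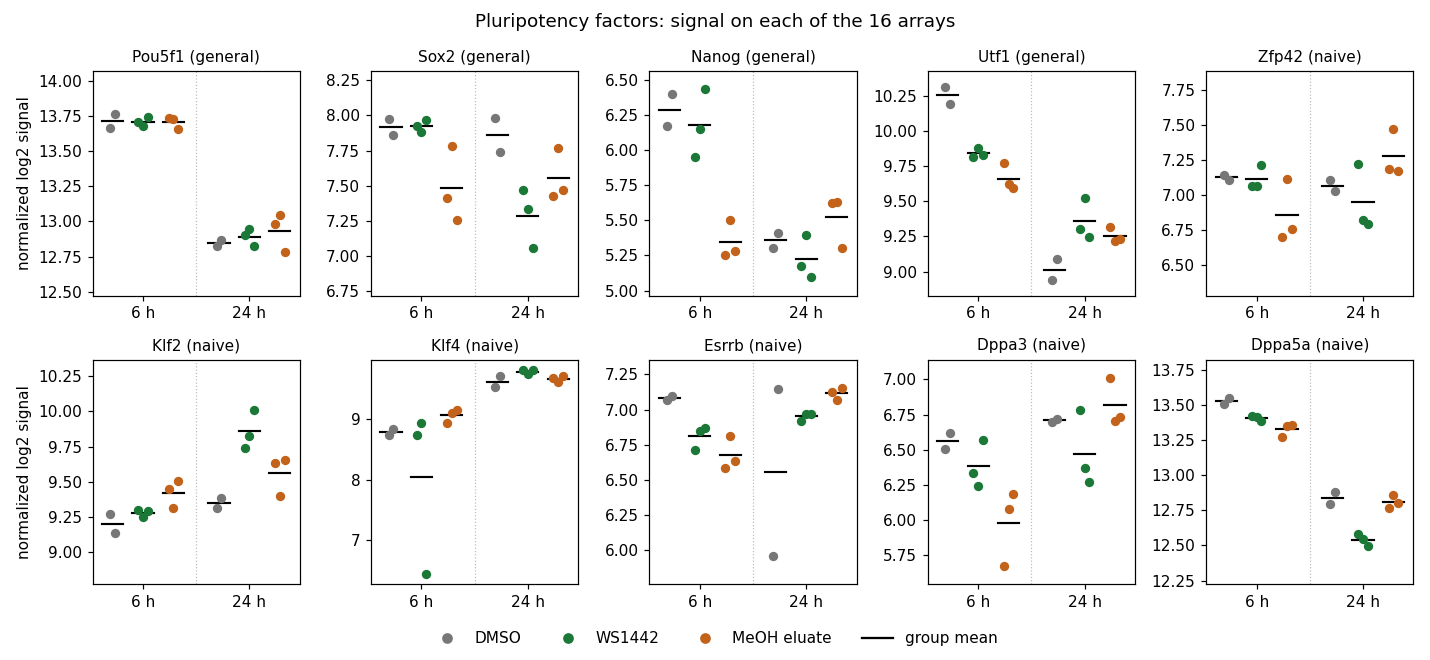
Normalized log2 signal of the 10 factors on each of the 16 arrays, by treatment and time, with the group mean as a black line; each panel has its own vertical range, and levels of different genes cannot be ranked against each other. Nanog was between 5.25 and 5.50 on the 3 arrays with MeOH eluate at 6 h and between 6.17 and 6.40 with DMSO, and 1 Klf4 value (6.43) and 1 Esrrb value (5.96) stood apart from their groups.

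At 6 h the MeOH eluate lowered 4 of the 10 factors, Nanog, Utf1, Dppa3 and Dppa5a, and raised none at an adjusted p under 0.05. Among all probes tested, 8.39% were lower and 7.84% higher in that comparison. WS1442 at 6 h lowered Utf1 alone, against 1.15% of all probes lower and 3.52% higher. The median change over the 10 genes was -0.34 with MeOH eluate and -0.12 with WS1442, beside -0.01 and 0.00 over all probes. General and naive factors were each represented among the fallen genes with MeOH eluate: 2 of 4 general and 2 of 6 naive factors, with medians of -0.51 and -0.24. None of the 10 passed the limits of the study, a change of more than 2-fold with an unadjusted p under 0.05, against DMSO at either time. The share of all probes past these limits was not set beside this count, so it does not set the factors apart from other genes.

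Nanog, the homeodomain factor that stabilises self-renewal, changed most among the factors at 6 h with MeOH eluate. Its log2 signal was 6.17 and 6.40 with DMSO, 5.95, 6.15 and 6.43 with WS1442, and 5.25, 5.50 and 5.28 with MeOH eluate. The MeOH eluate arrays lay below all others at 6 h, while WS1442 overlapped DMSO on both sides. The difference from DMSO was -0.94 ± 0.17 (SE) for MeOH eluate (limma, adjusted p = 0.00162) and -0.11 ± 0.17 for WS1442 (adjusted p = 0.809). MeOH eluate against WS1442 gave -0.83 ± 0.15 (adjusted p = 0.00377). The probe is dim, and after another background correction with an offset of 50 the same differences from DMSO and from WS1442 for MeOH eluate were -0.47 and -0.39, still past the threshold.

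Nanog is also the factor whose promoter window holds the joint binding sequence of Sox2 and Pou5f1. The 250 bases before its upstream start site (RefSeq, GRCm38.p6, chr6:122707239-122707488, + strand) are shown with that match in capitals.
Nanog promoter: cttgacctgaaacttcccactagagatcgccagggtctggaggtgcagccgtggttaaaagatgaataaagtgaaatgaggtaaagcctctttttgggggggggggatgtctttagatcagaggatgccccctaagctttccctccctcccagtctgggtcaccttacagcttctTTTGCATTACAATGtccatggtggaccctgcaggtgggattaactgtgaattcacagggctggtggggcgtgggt
The match lies 75 to 62 bases before the start site and reads CATTGTAATGCAAA on the other strand. The motif searched was CATTGT followed by ATGCAAA with at most 1 base between them, on both strands, and it occurred in 3 of 32851 windows of the same length, or 0.00913%, and 2 of these 3 were overlapping windows of Nanog. CATTGT alone, which the composite contains, occurred in 10.7% of windows. The RefSeq table gave 11 windows for 8 of the 10 genes, all but Dppa3 and Dppa5a. The match is a description of sequence and was not tied to any of the changes.

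Utf1 moved in opposite directions at the 2 time points. At 6 h its log2 signal was 10.32 and 10.19 with DMSO, 9.82, 9.88 and 9.83 with WS1442, and 9.77, 9.62 and 9.59 with MeOH eluate. Every treated array was below both DMSO arrays, and MeOH eluate was below WS1442 on every array. At 24 h the values were 8.94 and 9.09 with DMSO, 9.30, 9.53 and 9.25 with WS1442, and 9.31, 9.22 and 9.23 with MeOH eluate, so that every treated array was above both DMSO arrays. Against DMSO, the 6 h changes were -0.41 ± 0.08 for WS1442 (adjusted p = 0.0126) and -0.59 ± 0.08 for MeOH eluate (adjusted p = 0.000257). The 24 h changes were 0.35 ± 0.08 for WS1442 (adjusted p = 0.00762) and 0.24 ± 0.08 for MeOH eluate (adjusted p = 0.0598). Without the first DMSO array at 6 h the WS1442 change at 6 h was -0.35 (adjusted p = 0.188), and without the first DMSO array at 24 h that at 24 h was 0.27 (adjusted p = 0.111). Without the second WS1442 array at 24 h the MeOH eluate change at 24 h passed the threshold (adjusted p = 0.0300).

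The effect on Utf1 was higher at 24 h than at 6 h, at 0.76 ± 0.12 for WS1442 (adjusted p = 0.00199) and 0.83 ± 0.12 for MeOH eluate (adjusted p = 0.000446), from the interaction term of the same fit. Of the 10 factors, 2 had a higher effect at 24 h than at 6 h with each treatment and none a lower one, namely Utf1 and Klf2 with WS1442, and Utf1 and Nanog with MeOH eluate. Over all probes, 4.78% were called higher in this term with WS1442 and 3.7% with MeOH eluate. In either direction, 4201 of 36719 probes were called with WS1442, 41.8% of them higher, and 2602 of 36718 with MeOH eluate, 52.3% of them higher. The remaining calls were lower. With scaling to the 75th percentile, the WS1442 term had 1 factor higher, Utf1, and 1 lower, Dppa5a (-0.36, adjusted p = 0.0115), Klf2 was not called (adjusted p = 0.0585), and the share of all calls that were higher went from 41.8% to 25.9%. For Nanog the MeOH eluate effect was higher at 24 h by 1.105 ± 0.24 (adjusted p = 0.00954), which also passed the limits of the study, as 2.06% of all probes did in this direction. At 24 h Nanog was 5.30 and 5.41 with DMSO, 5.18, 5.39 and 5.09 with WS1442, and 5.62, 5.63 and 5.30 with MeOH eluate, and the groups overlapped. Neither treatment was called against DMSO there, with changes of -0.13 for WS1442 (95% interval -0.49 to 0.22) and 0.16 for MeOH eluate (-0.19 to 0.52). Without the second DMSO array at 6 h, the Nanog interaction was 0.99 (adjusted p = 0.0510), and with normexp background correction it was 0.56 (adjusted p = 0.00368), both under the 2-fold limit of the study.

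At 24 h, WS1442 raised 2 factors, Klf2 and Utf1, and lowered 2, Sox2 and Dppa5a. All probes had 11.3% higher and 12.2% lower calls in this comparison, and scaling to the 75th percentile moved the share of all calls that were higher from 47.9% to 36.7%. With MeOH eluate at 24 h none of the 10 was called in limma, beside 8.92% higher and 8.2% lower over all probes. At an unadjusted p under 0.05 it was 3 of the 10 in limma and 1 in the methods' t-test. The share of all probes at that unadjusted limit was not set beside these 2 counts. The median change at 24 h was -0.04 with WS1442 and 0.14 with MeOH eluate, and the number of genes with a negative difference was 5 and 2 of 10, against 8 of 10 with either treatment at 6 h. These values rest in part on the 2 deviating spots described below. With both set missing, Klf4 with WS1442 at 6 h went from -0.75 to 0.05. Esrrb at 24 h went from 0.40 to -0.19 with WS1442 and from 0.56 to -0.03 with MeOH eluate. The share of all probes below 0 was not set beside these counts, so they do not set the factors apart from other genes.

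**Figure D2:**
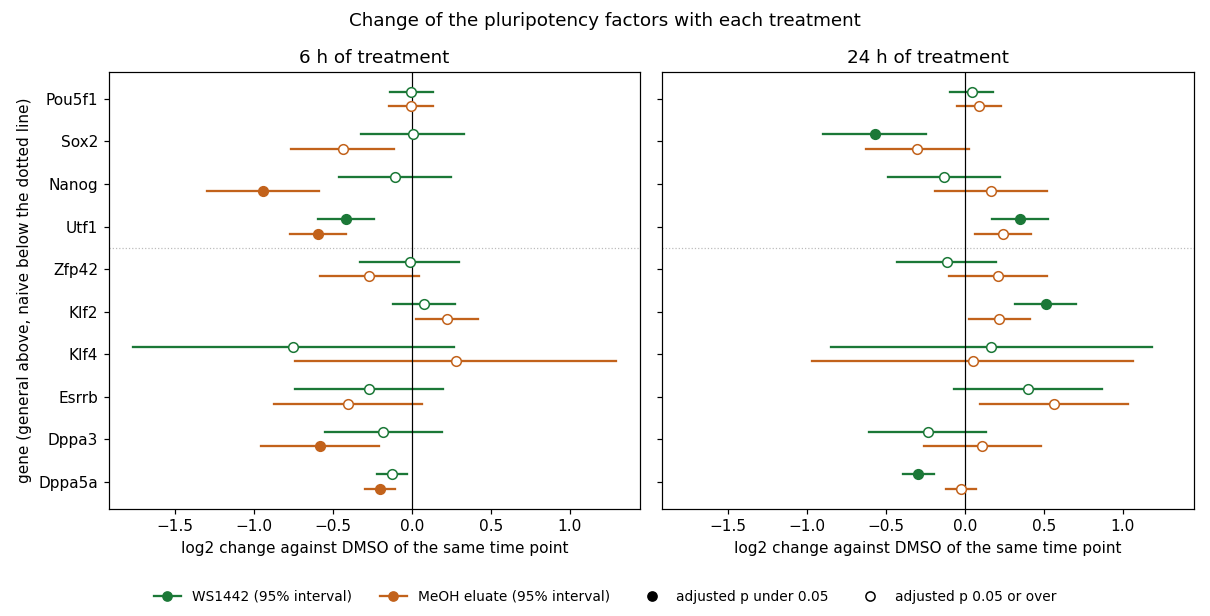
Log2 change of each factor against DMSO at 6 h (left) and 24 h (right) with its 95% interval, green for WS1442 and orange for MeOH eluate, filled where the adjusted p was under 0.05. Utf1 lay left of 0 at 6 h and right of 0 at 24 h with both treatments, every Pou5f1 interval included 0, and the wide intervals of Klf4 and Esrrb follow from 1 deviating spot each.

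Klf2, a zinc finger factor of the naive network that is also expressed in endothelium, rose with WS1442 at 24 h. Its log2 signal was 9.31 and 9.38 with DMSO, 9.74, 9.83 and 10.01 with WS1442, and 9.63, 9.40 and 9.66 with MeOH eluate, and every WS1442 array was above every other array at 24 h. The change was 0.51 ± 0.09 with WS1442 (adjusted p = 0.00109) and 0.22 ± 0.09 with MeOH eluate (adjusted p = 0.126). MeOH eluate against WS1442 gave -0.29 ± 0.08 (adjusted p = 0.0273), a call lost without WS1442 replicate 2 (adjusted p = 0.0567), WS1442 replicate 3 (0.146) or the second MeOH eluate array at 24 h (0.122). At 6 h the values were 9.27 and 9.13 with DMSO, 9.30, 9.25 and 9.29 with WS1442, and 9.45, 9.31 and 9.51 with MeOH eluate, with changes of 0.08 and 0.22 and adjusted p of 0.725 and 0.116. The WS1442 effect on Klf2 was higher at 24 h than at 6 h by 0.43 ± 0.13 (adjusted p = 0.0434). That call was lost under 14 of 26 other settings, among them each array with DMSO or WS1442 at 6 h left out in turn (adjusted p from 0.0535 to 0.176). Of 7 endothelial markers (Pecam1, Cdh5, Kdr, Tek, Tie1, Egfl7 and Emcn), 6 were tested, and with WS1442 at 24 h none was higher and 1, Egfl7, was lower, at -0.59 on the log2 scale (adjusted p = 2.98e-05). Their summed signal, on the log2 scale, was 11.59 to 11.70 with DMSO and 11.17 to 11.19 with WS1442 at 24 h. Such a sum adds linear signals, so the brightest gene weighs most, and the median change of the 6 was -0.03. Emcn was not well above background throughout any group, and the part of endothelial cells in the Klf2 level was not tested.

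Sox2, the partner of Pou5f1 that neural progenitors also express, fell with WS1442 at 24 h. Its log2 signal was 7.98 and 7.74 with DMSO, 7.47, 7.34 and 7.05 with WS1442, and 7.43, 7.77 and 7.47 with MeOH eluate. All WS1442 arrays were below both DMSO arrays, and MeOH eluate overlapped DMSO. The changes were -0.57 ± 0.15 (adjusted p = 0.0138) and -0.30 ± 0.15 (adjusted p = 0.209). Without DMSO replicate 1 or WS1442 replicate 3 at 24 h, the WS1442 change was -0.45 and -0.46 (adjusted p of 0.154 and 0.0625). At 6 h Sox2 was 7.98 and 7.86 with DMSO, 7.92, 7.89 and 7.97 with WS1442, and 7.41, 7.78 and 7.25 with MeOH eluate. The MeOH eluate arrays were all lower than the others, at -0.44 ± 0.15 against DMSO (adjusted p = 0.0659) and -0.44 ± 0.14 against WS1442 (adjusted p = 0.0490). The second of these calls was lost under 15 of 28 other settings, and the first was gained without the second MeOH eluate array at 6 h (-0.58, adjusted p = 0.0146). Of 7 neural progenitor markers, 3 were higher and 1 was lower with WS1442 at 24 h, and their summed log2 signal was 11.72 to 11.73 with DMSO and 12.28 to 12.45 with WS1442. Their median change was 0.24. The intermediate filament Nes rose by 0.78 (adjusted p = 2.53e-05) and the eye and neural factor Pax6 by 0.78 (adjusted p = 0.0207), while the lipid-binding protein Fabp7 changed by -0.49 (adjusted p = 0.0352). The part of neural cells in the Sox2 level was not tested.

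Dppa5a, an RNA-binding protein of stem and germ cells, had little spread between arrays, and small changes passed the test. Its log2 signal at 6 h was 13.51 and 13.55 with DMSO, 13.42, 13.41 and 13.38 with WS1442, and 13.27, 13.35 and 13.36 with MeOH eluate, in that order without overlap. The changes were -0.12 ± 0.04 (adjusted p = 0.136) and -0.20 ± 0.04 (adjusted p = 0.00669), the latter at -0.18 (adjusted p = 0.0613) without the second DMSO array at 6 h. At 24 h it was 12.79 and 12.88 with DMSO, 12.58, 12.54 and 12.49 with WS1442, and 12.77, 12.86 and 12.80 with MeOH eluate. WS1442 lay below both other groups on every array, by -0.30 ± 0.04 against DMSO (adjusted p = 0.000332). MeOH eluate differed from DMSO by -0.03 (95% interval -0.12 to 0.07) and from WS1442 by 0.27 ± 0.04 (adjusted p = 0.000745).

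Dppa3 was lower at 6 h with MeOH eluate, at 5.67, 6.08 and 6.19, than with DMSO, at 6.50 and 6.62, and with WS1442, at 6.33, 6.24 and 6.57. The WS1442 arrays overlapped DMSO and the MeOH eluate arrays did not. The MeOH eluate change was -0.58 ± 0.17 (adjusted p = 0.0341), and it was no longer past the threshold without either DMSO array or without the first MeOH eluate array at 6 h (adjusted p from 0.118 to 0.167). At 24 h Dppa3 was 6.70 and 6.72 with DMSO, 6.78, 6.37 and 6.27 with WS1442, and 7.01, 6.71 and 6.73 with MeOH eluate, and neither treatment differed from DMSO at an adjusted p under 0.05 (0.362 and 0.765). Since Dppa3 also marks germ cells, 8 primordial germ cell genes were read beside it, of which 7 were tested and Tfap2c was not. With MeOH eluate at 6 h none was higher and 3 were lower: Dnd1 by -0.71 (adjusted p = 0.000180), Nanos3 by -0.60 (adjusted p = 0.00995), both RNA-binding proteins of germ cells, and the membrane protein Ifitm3 by -0.19 (adjusted p = 0.0191). The summed log2 signal of the 7 was 13.79 to 13.95 with DMSO and 13.83 to 13.93 with MeOH eluate, and their median change was -0.19. With WS1442 at 6 h none of the 7 passed the test in limma and 1 had an unadjusted p under 0.05.

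Pou5f1, also called Oct4, was not called with either treatment at either time. Its log2 signal at 6 h was 13.66 and 13.76 with DMSO, 13.71, 13.68 and 13.74 with WS1442, and 13.74, 13.73 and 13.66 with MeOH eluate. At 24 h it was 12.83 and 12.87 with DMSO, 12.90, 12.94 and 12.82 with WS1442, and 12.98, 13.04 and 12.78 with MeOH eluate. The groups of a time point overlapped in every pair. The 95% intervals of the changes at 6 h were -0.14 to 0.13 for WS1442 and for MeOH eluate, and at 24 h they were -0.09 to 0.18 and -0.05 to 0.22, none of which reaches the -0.94 of Nanog at 6 h. The probe was bright and not saturated on any array.

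Zfp42 had 2 probes, and neither was called in any comparison with DMSO. The probe whose target has a position in the files (mm9, chr8:44380778-44380707, in that order) was above background on all 16 arrays, and the other, to the RefSeq transcript, on 10 of 16. The first 30 bases of each show that they read different stretches.
Zfp42, brighter probe: acaggaaagtgaatggtgaaagcataatcc
Zfp42, dimmer probe: agcagtttcaaaagcataacccttactata
On the brighter probe, DMSO gave 7.14 and 7.11 at 6 h, WS1442 7.06, 7.06 and 7.21, and MeOH eluate 6.70, 7.12 and 6.76, with the second MeOH eluate array inside the DMSO range. The MeOH eluate change was -0.27 ± 0.15 (adjusted p = 0.245). On the dimmer probe the 6 h values were 4.24 and 4.61 with DMSO, 3.80, 4.26 and 3.93 with WS1442, and 3.55, 4.04 and 4.03 with MeOH eluate, and the MeOH eluate change was -0.55 ± 0.27 (adjusted p = 0.183). At 24 h the brighter probe gave 7.11 and 7.03 with DMSO, 7.22, 6.83 and 6.80 with WS1442, and 7.19, 7.47 and 7.17 with MeOH eluate, with changes of -0.12 (adjusted p = 0.614) and 0.21 (adjusted p = 0.398). The dimmer probe gave 3.78 and 4.04 with DMSO, 3.75, 3.77 and 3.35 with WS1442, and 4.07, 3.59 and 3.97 with MeOH eluate at 24 h. It was well above background then on 1 of the 2 DMSO arrays, 1 of the 3 WS1442 arrays and no MeOH eluate array. Without the first WS1442 array at 24 h, MeOH eluate was higher than WS1442 by 0.46 on the brighter probe (adjusted p = 0.0291), beside 0.33 (adjusted p = 0.119) with it. With all arrays and the array row as a block, the difference was 0.39 (adjusted p = 0.0350). The promoter window of Zfp42 (RefSeq, GRCm38.p6, chr8:43307010-43307259, - strand) was the only one of the 11 with the octamer ATGCAAAT, the site of Pou5f1 and related factors, on either strand, and is shown for that reason with the match in capitals.
Zfp42 promoter: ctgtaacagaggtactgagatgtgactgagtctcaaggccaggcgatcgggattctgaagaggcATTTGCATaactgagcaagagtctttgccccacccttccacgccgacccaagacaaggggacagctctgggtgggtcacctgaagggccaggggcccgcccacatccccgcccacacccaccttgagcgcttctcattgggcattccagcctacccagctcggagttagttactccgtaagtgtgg
The octamer occurred in 1.6% of the 32851 windows.

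Klf4 and Esrrb each had 1 spot far from the rest of its group. Klf4, the zinc finger partner of Klf2, was 8.74 and 8.84 with DMSO and 8.94, 9.11 and 9.15 with MeOH eluate at 6 h, while WS1442 gave 8.74, 8.93 and 6.43. Esrrb, an orphan nuclear receptor that activates the naive network, was 7.07 and 7.10 with DMSO at 6 h, 6.72, 6.85 and 6.87 with WS1442, and 6.58, 6.81 and 6.63 with MeOH eluate, all treated arrays lying below DMSO. At 24 h Esrrb was 5.96 and 7.14 with DMSO, 6.92, 6.97 and 6.97 with WS1442, and 7.13, 7.07 and 7.15 with MeOH eluate. Neither spot was marked by the scanner, and with both kept no Klf4 or Esrrb change was called. With both set missing, a choice made after seeing the data, MeOH eluate at 6 h raised Klf4 by 0.28 ± 0.08 (adjusted p = 0.0340) and lowered Esrrb, with a change of -0.40 ± 0.09 (adjusted p = 0.00909), so that 6 of 10 factors were called in that comparison. Klf4 with WS1442 at 6 h went from -0.75 (adjusted p = 0.447) to 0.05 (adjusted p = 0.834), and Esrrb with MeOH eluate at 24 h from 0.56 (adjusted p = 0.0971) to -0.03 (adjusted p = 0.920). Left out instead, the second DMSO array at 24 h turned the Esrrb change with MeOH eluate into 1.15 (adjusted p = 1.66e-05). At 24 h Klf4 was 9.53 and 9.72 with DMSO, 9.82, 9.74 and 9.81 with WS1442, and 9.69, 9.62 and 9.72 with MeOH eluate, with changes of 0.17 and 0.05 against DMSO. A second Esrrb probe stayed under the background limit on all 16 arrays, with log2 signals of 1.29 to 2.48, and gave no test.

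Set against each other, the MeOH eluate was lower than WS1442 at 6 h for Nanog and Sox2 and higher for none, with 7.41% of all probes lower and 4.17% higher. At 24 h it was higher for Dppa5a and lower for Klf2, with 7.52% of all probes higher and 6.11% lower. Klf4 passed only the limits of the study at 6 h, by 1.03 (adjusted p = 0.129), as 0.673% of all probes did upward, and with the deviating WS1442 spot missing the difference was 0.23 (adjusted p = 0.0894). In both comparisons the doses differ, 0.25 mg/ml of the extract and 0.1 mg/ml of the fraction. At 6 h scaling to the 75th percentile moved the share of all calls that were higher from 36% to 19.5%, and Utf1 was then called lower with MeOH eluate as well (-0.26, adjusted p = 0.0374).

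In the vehicle cultures 3 of the 4 general factors were lower at 24 h than at 6 h, with the limit that each time point is 1 slide. The log2 change was -0.87 ± 0.07 for Pou5f1 (adjusted p = 7.11e-07), -0.93 ± 0.18 for Nanog (adjusted p = 0.000971) and -1.24 ± 0.09 for Utf1 (adjusted p = 3.06e-07), while Sox2 differed by -0.06 (95% interval -0.41 to 0.30). Of the naive factors, 1 of 6 was called, Dppa5a, at -0.69 ± 0.05 (adjusted p = 2.32e-07). The others were Zfp42 at -0.06, Klf2 at 0.15, Dppa3 at 0.15, Klf4 at 0.84 and Esrrb at -0.53, and Klf4 passed the test (adjusted p = 1.07e-05) once the deviating spots were set missing. The 4 calls, all lower, stand beside 20.7% of all probes lower and 20.5% higher. With scaling to the 75th percentile Klf2 was called higher as well, at 0.30 (adjusted p = 0.0218), Dppa5a was at -0.45 (adjusted p = 6.32e-05), and the share of all calls that were higher went from 49.7% to 59.5%. Utf1 alone passed the limits of the study downward, as 7.51% of all probes did. In the same comparison the 10 spike-in control probes differed by -0.48 to 0.52 after normalization, in a way that went with brightness. Controls with a mean log2 signal of 9.16 or more at 6 h were all lower at 24 h, by -0.48 to -0.11. Those at 7.42 or less were all higher, by 0.02 to 0.52. Pou5f1, Dppa5a and Utf1 lay in the brighter range and Nanog in the dimmer one. With scaling to the 75th percentile the Pou5f1 change was -0.63 (limma, adjusted p = 6.08e-05).

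Of 17 other general pluripotency genes, all tested, 1 was higher and 6 were lower with MeOH eluate at 6 h, with a median change of -0.15. The Nodal co-receptor Tdgf1 changed most, by -1.17 (adjusted p = 5.70e-08), followed by the forkhead factor Foxd3 at -0.51 (adjusted p = 0.0480) and the ligand Gdf3 at -0.48 (adjusted p = 0.00218). With WS1442 at 6 h 1 was higher, the polycomb protein Phc1 at 0.25 (adjusted p = 0.00707), and 2 were lower, Tdgf1 at -0.45 (adjusted p = 0.00217) and L1td1 at -0.31 (adjusted p = 0.0174). At 24 h WS1442 had 3 higher and 3 lower, among them the methylation cofactor Dnmt3l at -0.80 (adjusted p = 1.32e-05) and the RNA-binding protein Lin28a at -0.53 (adjusted p = 0.000186). MeOH eluate at 24 h had 5 higher and 3 lower, led by Tdgf1 at -0.69 (adjusted p = 5.37e-06), Sall4 at -0.39 (adjusted p = 0.00777) and Dppa4 at 0.35 (adjusted p = 0.0238). In DMSO between 6 h and 24 h 8 of the 17 were lower and 1 was higher. For this list and those below, the shares of all probes called are the background. At 6 h, 1.15% were lower and 3.52% higher with WS1442, and 8.39% lower and 7.84% higher with MeOH eluate. At 24 h, 12.2% were lower and 11.3% higher with WS1442, and 8.2% lower and 8.92% higher with MeOH eluate. In DMSO over time 20.7% were lower and 20.5% higher.

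Of 15 other naive and LIF pathway genes, all tested, 3 were higher and none lower with WS1442 at 6 h: Gbx2 by 0.79 (adjusted p = 0.00201), the F-box gene Fbxo15 by 0.57 (adjusted p = 0.0326) and the LIF signal transducer Il6st by 0.25 (adjusted p = 0.0340). With MeOH eluate at 6 h 1 was higher and 2 were lower, Il6st at 0.26 (adjusted p = 0.00992), the threonine dehydrogenase Tdh at -0.64 (adjusted p = 0.000155) and Tbx3 at -0.60 (adjusted p = 0.000577). At 24 h WS1442 had 1 higher and 4 lower, and MeOH eluate 3 higher and 4 lower. With MeOH eluate at 24 h the T-box factor Tbx3, which is also expressed in extraembryonic endoderm and heart, changed by -1.64 (adjusted p = 5.20e-08), the LIF receptor Lifr by -1.23 (adjusted p = 7.38e-05) and the feedback inhibitor Socs3 by -0.67 (adjusted p = 3.24e-05). With WS1442 at 24 h Tbx3 changed by -1.03 (adjusted p = 1.10e-05), Klf5 by 0.61 (adjusted p = 1.60e-05) and Lifr by -0.56 (adjusted p = 0.0187). In DMSO 9 of the 15 were higher and 1 lower at 24 h than at 6 h, against 4 lower and none higher of the 10 factors. Lifr, Socs3 and Tbx3 rose there by 1.77, 1.47 and 1.28 (adjusted p from 8.56e-08 to 3.34e-06).

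Of 10 formative and primed epiblast genes, 4 were lower and 1 was higher with MeOH eluate at 6 h. The homeobox factor Otx2 changed by -1.27 (adjusted p = 2.15e-05), and the FGF-responsive factors Etv5 and Etv4 by -0.85 (adjusted p = 5.64e-07) and -0.52 (adjusted p = 4.45e-05). At 24 h the direction of the calls differed between treatments: WS1442 had 4 higher and 1 lower, and MeOH eluate 1 higher and 4 lower. Etv4 changed by 0.27 with WS1442 (adjusted p = 0.00420) and by -0.72 with MeOH eluate (adjusted p = 1.33e-06), and MeOH eluate was lower than WS1442 there (adjusted p = 3.02e-07). The methyltransferase Dnmt3b and the POU factor Pou3f1 rose with WS1442 at 24 h by 0.36 (adjusted p = 0.00114) and 0.32 (adjusted p = 0.00227), while Otx2 and Zic2 changed with MeOH eluate by -0.62 (adjusted p = 0.00470) and -0.51 (adjusted p = 0.00101). WS1442 at 6 h had 1 higher, Dnmt3a at 0.51 (adjusted p = 0.0110), and 3 lower, among them Otx2 at -0.53 (adjusted p = 0.0389) and Zic2 at -0.42 (adjusted p = 0.0175). Of the germ cell genes at 24 h, the RNA-binding protein Dazl was higher with both treatments, at 1.05 for WS1442 (adjusted p = 0.00165) and 1.20 for MeOH eluate (adjusted p = 0.000650), and Dnd1 was lower, by -0.36 (adjusted p = 0.0140) and -0.31 (adjusted p = 0.0352).

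**Figure D3:**
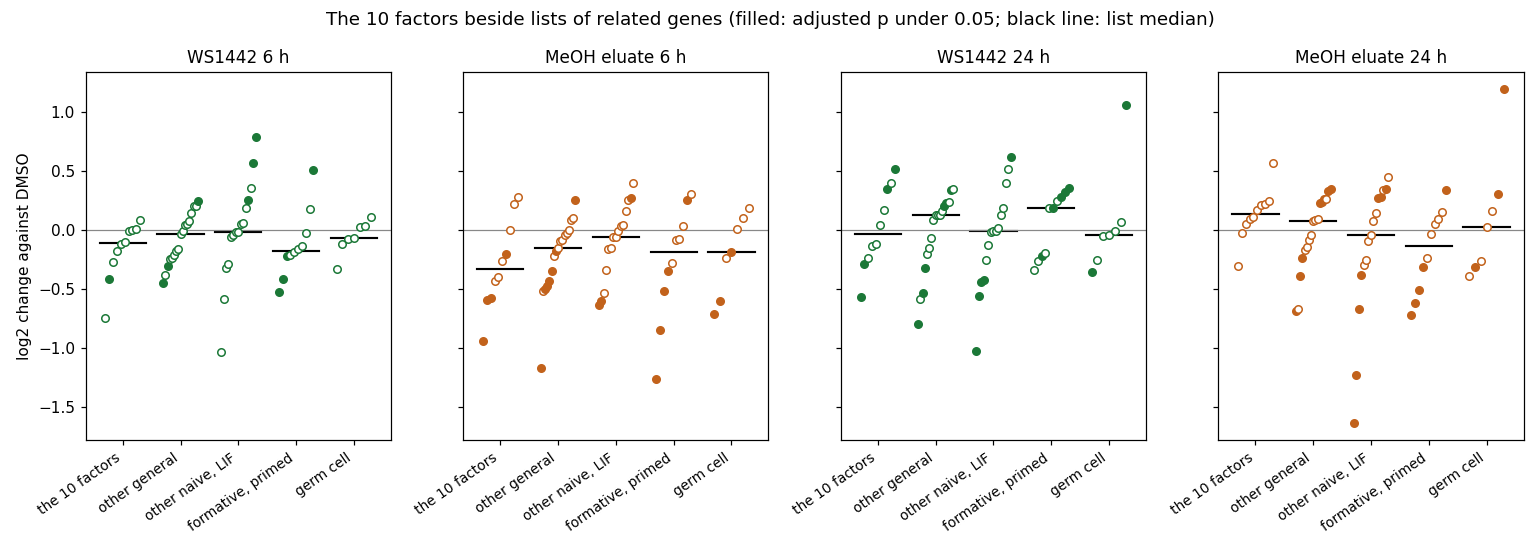
Log2 change against DMSO of the 10 factors and of the tested genes of 4 related lists, 1 panel per treatment and time, with genes of a list in order of their change, filled where the adjusted p was under 0.05, and the list median as a black line. With MeOH eluate at 6 h the medians were -0.34 for the 10 factors and -0.15 for the 17 other general genes, and at 24 h they were 0.14 and 0.07.

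Markers of germ layers moved in the same cultures. Of 6 early mesoderm genes, 3 were lower and none higher with each treatment at 6 h, and 3 with WS1442 and 4 with MeOH eluate at 24 h, again none higher. Mixl1, a primitive streak factor, changed at 6 h by -2.39 with MeOH eluate and by -0.99 with WS1442 (adjusted p of 2.36e-11 and 3.20e-06). The summed log2 signal of the 6 genes at 6 h was 12.17 to 12.18 with DMSO, 11.57 to 11.71 with WS1442 and 10.84 to 10.93 with MeOH eluate. Their median change at 6 h was -0.12 with WS1442 and -0.43 with MeOH eluate. Of 7 endoderm genes 6 were tested (Ttr was not), and with MeOH eluate 3 were lower and none higher at 6 h and at 24 h, among them Gata6 at -1.79 and -1.48 (adjusted p of 9.92e-07 and 3.57e-06). Their summed signal with DMSO and MeOH eluate was 11.26 to 11.30 and 10.65 to 10.79 at 6 h, and the median change of the 6 was -0.38. Of 6 trophoblast genes 5 were tested (Elf5 was not), with 1 higher and 2 lower with MeOH eluate at 6 h, and none called with WS1442 at 6 h in limma, where none had an unadjusted p under 0.05 either. The keratin Krt8 rose at 24 h, by 0.41 for WS1442 (adjusted p = 4.30e-05) and 0.61 for MeOH eluate (adjusted p = 6.24e-07). Krt8 was the only 1 of the 5 called higher at 24 h with either treatment, and 1 gene was lower with MeOH eluate. The median change of the 5 at 24 h was -0.07 with WS1442 and -0.095 with MeOH eluate. The summed signal of the 5 genes was 15.45 to 15.58 with DMSO, 15.91 to 15.93 with WS1442 and 16.02 to 16.17 with MeOH eluate at 24 h. This sum, like those above, adds linear signals, so the brightest gene weighs most in it. The part of these cell types in the levels of the 10 factors was not tested.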

How the data were processed

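RNA of 16 samples was measured on 1-colour Agilent arrays. The authors deposited scanner intensities (Feature Extraction 11.5.1.1), background corrected within each array, and a table of quantile-normalized linear intensities. For this report the scanner intensities were put on the log2 scale, spots marked non-uniform were set missing, replicate spots were averaged and the arrays were quantile normalized with limma 3.58.1 in R 4.3.3. The deposited intensity table served as an alternative source. Probes were kept where some group had all of its arrays well above background. A linear model of 6 group means was fitted with limma (eBayes with trend), and p-values were adjusted over all probes tested by Benjamini-Hochberg, with a threshold of 0.05. Intervals are 95%. Symbols came from the scanner files or, by accession, from RefSeq, as did promoter sequences. Each gene is represented by its brightest kept probe, and of the other lists the up to 3 genes with the largest change among those called are named. Of these, 1 gene, and 1 probe sequence of the factors, are not reported here. Members and lists were chosen with earlier results of these data known. The fit was tested on simulated data. The methods' t-test is Student's test, which the paper names for pairwise comparisons of its data in general. For the arrays it credits the statistics to OakLabs, after Bolstad et al., and names no test. Whether the study used Student's test on the arrays is therefore not known. The precision is limited by the number of arrays. Alternatives covered normalization, background, filter, source, probe choice, test, blocks and each array left out.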

Additional observations from a re-analysis of the deposited data

Results flagged for a closer look

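The effect of a treatment differed between 24 h and 6 h for 3 of the 10 factors, by the interaction term of the limma fit. Over all probes, 4201 of 36719 were called in this term with WS1442 and 2602 of 36718 with MeOH eluate. For Utf1 the effect at 24 h was 0.76 higher for WS1442 and 0.83 higher for MeOH eluate, since its level was below DMSO at 6 h and above it at 24 h, and no other setting that was run moved either call. For Nanog the MeOH eluate effect was higher by 1.105 at 24 h, after a fall at 6 h and an interval that includes 0 at 24 h. With normexp background correction the Nanog difference was 0.56. For Klf2 the WS1442 effect was higher by 0.43 at 24 h, a call lost under 14 of 26 other settings. Each effect was measured within its slide, so a shift of level between slides that is shared by all arrays of a slide cancels in these differences. A shift that differs between treated and DMSO arrays does not cancel. After normalization, 1 dim spike-in control was higher at 24 h by 0.20 over all arrays and by 0.51 over DMSO arrays. A bright control differed by -0.52 and -0.48. The part of such shifts in these differences was not tested.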

How the results depend on the processing

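The 21 called changes of the factors were recomputed under 28 other settings, where the comparison allowed them, which gave 576 values. None reversed, 515 kept their call and 61 lost it, 17 of them in the methods' t-test. That test called none of the 10 factors after adjustment in any comparison of 2 groups (0 calls in each, where limma called 1 and 4 at 6 h for WS1442 and MeOH eluate, 4 at 24 h for WS1442, 2 for each comparison of MeOH eluate with WS1442, and 4 for DMSO over time), and at an unadjusted p under 0.05 it gave 1 to 5. The share of all probes at that unadjusted limit was not set beside these counts. After adjustment it called 1 of 36719 probes for WS1442 at 6 h. It called at most 245 of 36726, for MeOH eluate against WS1442 at 24 h. Its 0 calls therefore do not set the factors apart from other genes. Without the filter, 1 factor in place of 2 was called for MeOH eluate against WS1442 at 6 h and for the WS1442 effect over time, and 3 in place of 4 for MeOH eluate at 6 h, where Dppa3 was lost (adjusted p = 0.0703). Without the variance trend it was 1 in place of 2 for these and for MeOH eluate against WS1442 at 24 h. With the array row as a block, or within the time point alone, MeOH eluate against WS1442 at 6 h had 1. The row block also gained Zfp42 for MeOH eluate against WS1442 at 24 h (adjusted p = 0.0350), and within the time point MeOH eluate at 6 h lost Dppa3 (adjusted p = 0.0593) and gained Esrrb (adjusted p = 0.0419). With normexp background correction, MeOH eluate at 24 h had 1 (Utf1, adjusted p = 0.0324), and log2 changes of dim probes shrank, 1.94- to 2.11-fold for Nanog and 1.76-fold for Dppa3. Scaling to the 75th percentile and the deposited table moved no total by more than 1.5 times, but with this scaling the WS1442 effect over time had 1 factor higher and 1 lower (Dppa5a) in place of 2 higher.

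Leaving out each of the 16 arrays in turn gave 0 to 1 called factors for WS1442 at 6 h, 2 to 5 for MeOH eluate at 6 h, 2 to 5 for WS1442 at 24 h and 0 to 1 for MeOH eluate at 24 h. It gave 1 to 2 for MeOH eluate against WS1442 at 6 h and 1 to 4 at 24 h, 1 to 2 and 1 to 3 for the effects over time of WS1442 and MeOH eluate, and 4 to 5 for DMSO over time. Where this left 1 DMSO array, that array was assumed to vary like the other groups. Calls over all probes moved with the omissions too. For WS1442 at 6 h they were 598 of 36719 without its replicate 3 and 2288 without its replicate 1. Deviations of samples with the same replicate number correlated at -0.22 to 0.28. These are deviations from means of 2 or 3 arrays and depend on each other, so they cannot settle whether the numbers pair samples. The labels do not say what a replicate number shares. With a replicate block, Dppa3 with MeOH eluate at 6 h had an adjusted p of 0.0597, and the other calls among the 21 kept their side of the threshold. With 2 DMSO arrays per time point, a change whose interval included 0 could not be told from no change, and small changes may have been missed.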
